A study of Mus musculus with 9 samples.

Results

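Dpt, Ly6a, Ly6c1, Cd34, Clec3b, Abi3bp, Gsn and Thy1, 8 genes used as markers of the universal fibroblast, the resting progenitor-like fibroblast of connective tissue, were followed in mouse mammary fibroblasts cultured with and without carcinoma cells. They were taken by gene symbol from the table of normalised read counts, where 8 of 8 were found among 11931 genes. Genes that reached a value of 5 in 3 or more libraries were kept for testing, which passed 7 of them and left out Clec3b. The 10639 genes that passed were tested together.

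The fibroblasts came from mammary fat pads of BALB/c females aged 12 weeks and recovered on a collagen layer for 1 week before they were plated again. Monocultures were kept alone for 5 days, 3-day co-cultures were collected 3 days after 4T1-GFP cells were seeded onto the fibroblasts, and 5-day co-cultures after 5 days. 4T1 cells are a line of mammary carcinoma from the same strain and here carried green fluorescent protein (GFP). Before RNA was taken, cells of all 3 groups were sorted for lack of GFP and for podoplanin (PDPN), a surface glycoprotein of fibroblasts, and each group had 3 libraries of 3′ end mRNA. The labels do not say whether replicates were separate cultures or animals, so the p-values measure the spread between these libraries, which may be technical. A monoculture of 3 days was not analysed here, so in the 3-day comparison the carcinoma cells and the number of days differ together and cannot be told apart. Both co-culture groups were compared with the same monocultures.

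Universal fibroblasts are defined by Dpt across tissues, and are thought to give rise to specialised and activated fibroblast states. They lie in a Pi16-positive adventitial state around vessels and a Col15a1-positive parenchymal state, and in the fat pad overlap with adipose stem and progenitor cells. Ly6a (Sca-1), Cd34 and Thy1 (CD90) encode surface antigens by which such cells are commonly sorted, while Dpt, Abi3bp and Clec3b encode secreted proteins and Gsn an actin-severing protein.

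Between 1048471 and 3567326 reads were assigned to genes in a library, with a mean of 2966627 in monoculture, 1632228 after 3 days and 1806567 after 5 days of co-culture. Fibroblast markers were detected in every group, 12 of 12, and their summed level lay between 44128 and 62011 in monoculture, 42916 and 54529 at 3 days and 38734 and 52965 at 5 days. This sum is carried largely by the collagen genes Col1a1 and Col1a2, and of the 12 markers 5 were called lower and 0 higher at 3 days, and 6 lower and 1 higher at 5 days. Summed epithelial and carcinoma markers, 17 of 21 in the table, lay between 58 and 76.2 in monoculture, 1117 and 1279 at 3 days and 1102 and 1533 at 5 days, and Cldn3, Elf3 and Grhl2 were at 0 in every monoculture. Of 14 such markers tested, 13 rose and 0 fell in each co-culture group. The adipocyte markers in the table, Fabp4 and Pparg (2 of 7), both fell, with sums of 102.8 to 157.2, 10 to 25.1 and 13.5 to 18.7. Pparg passed the filter only through the monocultures, so its being tested favoured a fall. Its calls were lost with reads thinned to the shallowest library (limma adjusted p = 0.239 at 3 days and 0.101 at 5 days). Leaving out some single libraries ended them too. The leukocyte sum, with 7 of 12 markers in the table, lay between 73.3 and 277, 112.9 and 359.3, and 66.1 and 160.2, and the endothelial sum (4 of 11) between 31.7 and 35.9, 50.7 and 64.7, and 38.7 and 46.2. Pericyte and smooth muscle markers (7 of 9) summed to 257.2 to 573.7, 879.3 to 1144 and 806.9 to 883.9. Basal markers (3 of 7) summed to 2.5 to 11, 44.6 to 66.4 and 39.6 to 49.9, and mesothelial markers (4 of 5) to 35.3 to 54.4, 105.8 to 126.2 and 119.5 to 156. The epithelial, basal, mesothelial, pericyte and endothelial sums were thus higher, and the adipocyte sum lower, in every co-culture library than in monoculture. These sums hide single markers. Cnn1 made up most of the pericyte sum. Krt19, on the epithelial list too, and Msln raised the mesothelial sum. The mesothelial means of Wt1 (5.2, 0.933 and 1 in the 3 groups) and Lrrn4 (2.6, 0 and 0) fell. Oxtr fell from 2.4 to 0 in the basal list, where the 2 markers tested, Krt14 and Sfn, were called higher. Of 4 endothelial markers tested, 1 was called lower and 1 higher at 3 days, and 0 lower and 1 higher at 5 days. The marker called lower passed the filter only through the monocultures, so its being tested favoured a fall. The part of all these cell type markers in the results below was not tested. Depth was lower in the co-cultures too. With the reads of every library thinned to the shallowest, 7, 7 and 4 members were called lower in the 3 comparisons, as without thinning. For 5-day co-culture replicate 2 the table's column name gives no carcinoma cells, and it was assigned by elimination. Without it 6 members were called lower at 5 days, with Gsn lost, and 3 between 5 and 3 days, with Thy1 lost. In bulk libraries, fewer cells of a type and less RNA per cell cannot be told apart.

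The starting regions of 3 members are shown as examples, and their part in the size of the falls was not tested. The windows run from 250 bases before to 50 bases after the annotated start in RefSeq, build GRCm38.p6. Of the 8 members, 4 (Dpt, Ly6c1, Cd34 and Gsn) matched the RefSeq promoter table, with 7 windows. Ly6a, Clec3b, Abi3bp and Thy1 had none. For Gsn the last of its 3 windows along the gene is shown. The Dpt window is chr1:164796413-164796712 on the plus strand, the Ly6c1 window chr15:75048788-75049087 on the minus strand and the Gsn window chr2:35282130-35282429 on the plus strand, each written 5′ to 3′ along the gene. The reference genome is of another mouse strain than BALB/c. Capitals mark matches, on either strand, to 6 motifs. The TATA box was searched as the letters TATAAA, and the CCAAT box as its own name spells it. The GC box that binds Sp factors was searched as GGGCGG, and the motif of RUNX factors as TGTGGT. For AP-1 factors the letters searched were TGANTCA, and for STAT factors they were TTCNNNGAA.
Dpt: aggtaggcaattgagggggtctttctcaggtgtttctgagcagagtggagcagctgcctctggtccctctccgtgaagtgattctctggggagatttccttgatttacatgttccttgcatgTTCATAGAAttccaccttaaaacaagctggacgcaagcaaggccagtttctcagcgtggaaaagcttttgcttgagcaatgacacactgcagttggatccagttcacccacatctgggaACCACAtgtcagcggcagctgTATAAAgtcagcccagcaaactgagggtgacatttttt
Ly6c1: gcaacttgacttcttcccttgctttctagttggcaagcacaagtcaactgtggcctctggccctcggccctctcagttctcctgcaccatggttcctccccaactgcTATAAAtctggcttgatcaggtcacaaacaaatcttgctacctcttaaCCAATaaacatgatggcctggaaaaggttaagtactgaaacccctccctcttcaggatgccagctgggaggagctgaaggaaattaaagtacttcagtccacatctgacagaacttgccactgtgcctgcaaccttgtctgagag
Gsn: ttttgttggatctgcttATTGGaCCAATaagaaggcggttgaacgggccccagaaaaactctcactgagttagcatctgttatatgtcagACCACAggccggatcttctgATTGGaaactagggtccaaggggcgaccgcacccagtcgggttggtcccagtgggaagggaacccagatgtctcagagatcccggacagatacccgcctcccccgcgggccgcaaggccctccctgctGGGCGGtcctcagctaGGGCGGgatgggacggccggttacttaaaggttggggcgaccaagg

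The Dpt window held a STAT motif beginning 128 bases before the start, a RUNX motif on the other strand beginning 9 bases before it, and a TATA box beginning 12 bases after it. The Ly6c1 window held a TATA box 143 bases and a CCAAT box 95 bases before the start. The Gsn window held 3 CCAAT boxes, 2 GC boxes and a RUNX motif. A GC box was present in each of the 3 Gsn windows, and was the only motif found in the first, chr2:35256109-35256408. No matches overlapped in these windows, and neither the Cd34 window nor the other Ly6c1 window held any of the 6 motifs. Of 32851 promoter windows of this length, 13.62% held a TATA box, 37.41% a CCAAT box, 35.66% a GC box, 16.76% a RUNX motif, 7.81% an AP-1 motif and 8.3% a STAT motif. A match describes letters, not a site in use.

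The members were lower in co-culture, by amounts that ranged from 1.67-fold for Gsn to 108.2-fold for Abi3bp in means after 5 days. Dpt, Ly6a and Abi3bp fell to 12.1%, 12.5% and 10.2% of their monoculture means after 3 days, and to 2.99%, 3.27% and 0.924% after 5 days. Ly6c1 stood at 8.57% and 6.03% of its monoculture mean, Gsn at 47.3% and 59.9%, and Thy1 at 59.7% and 36%. Cd34 and Clec3b were low even in monoculture and were at or near 0 after 5 days.

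Tests were made with limma on log2(value + 1) over all genes tested. The p-values were adjusted by Benjamini-Hochberg and called under 0.05, and log2 fold changes on this scale understate the change of low genes. In the 3-day comparison 7 members were called lower and 0 higher, where 9.37% of all genes tested were called lower and 10.6% higher. In the 5-day comparison 7 were called lower and 0 higher, where 11.4% of genes were called lower and 12.6% higher. Cd34 passed the filter only through the monocultures, in which it is high, so its being tested favoured a fall. The other 6 tested members pass through the co-culture libraries alone, and 6 of these 6 were called lower in each comparison with monoculture. Every co-culture library lay below every monoculture library for 7 of the 8 members at 3 days and for 8 at 5 days. Among all genes tested, 18.1% and 20.1% were separated downward in this way. The median log2 fold change over all genes was 0.00 at 3 days and -0.01 at 5 days. The plot of members by library shows these levels.

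**Figure D1:**
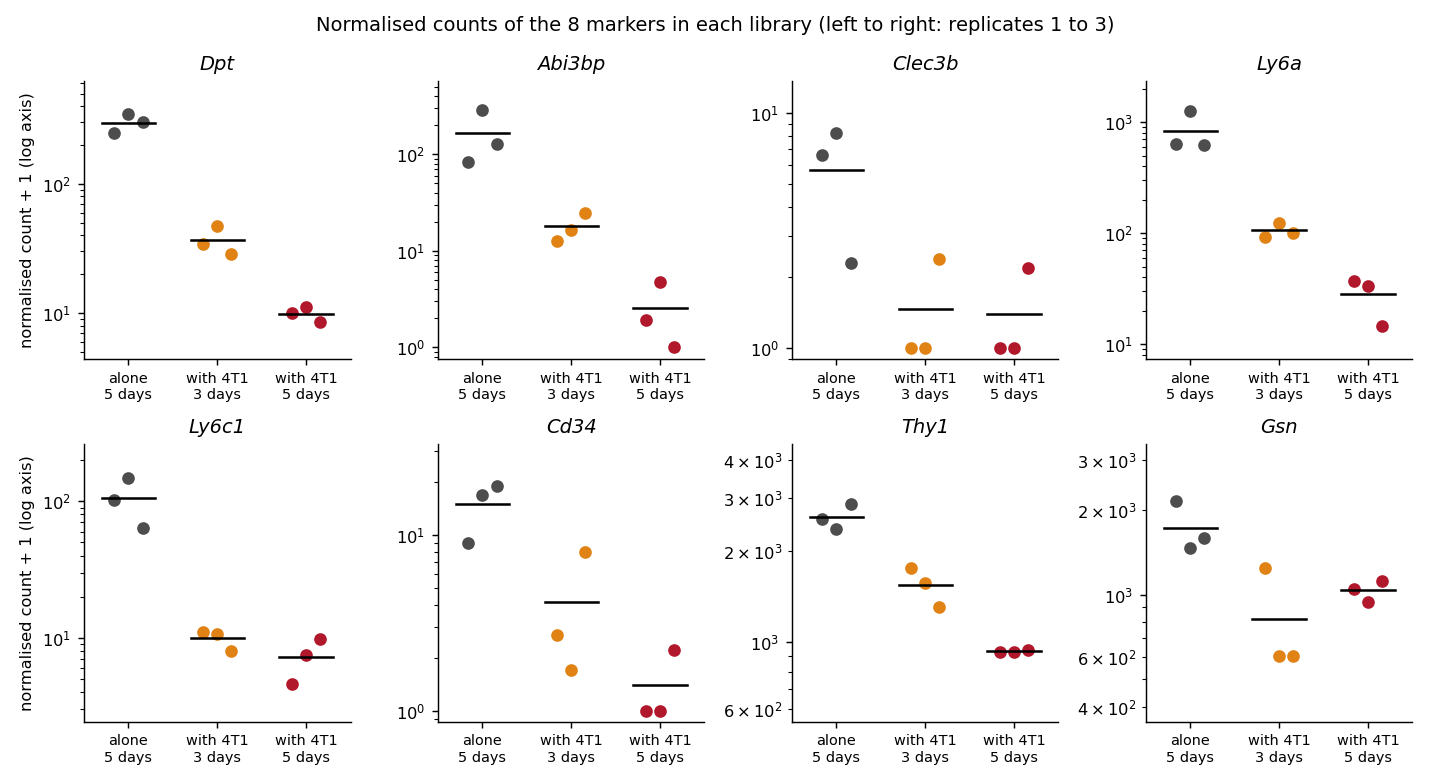
Normalised read counts of the 8 members in each of the 9 libraries as value + 1 on a log axis, with monoculture (alone), 3-day and 5-day co-culture side by side, points for libraries and lines for the mean of 3. Dpt, Ly6a and Abi3bp step down from monoculture to 3 days and again to 5 days, while the Gsn libraries of the co-culture groups overlap.

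**Figure D2:**
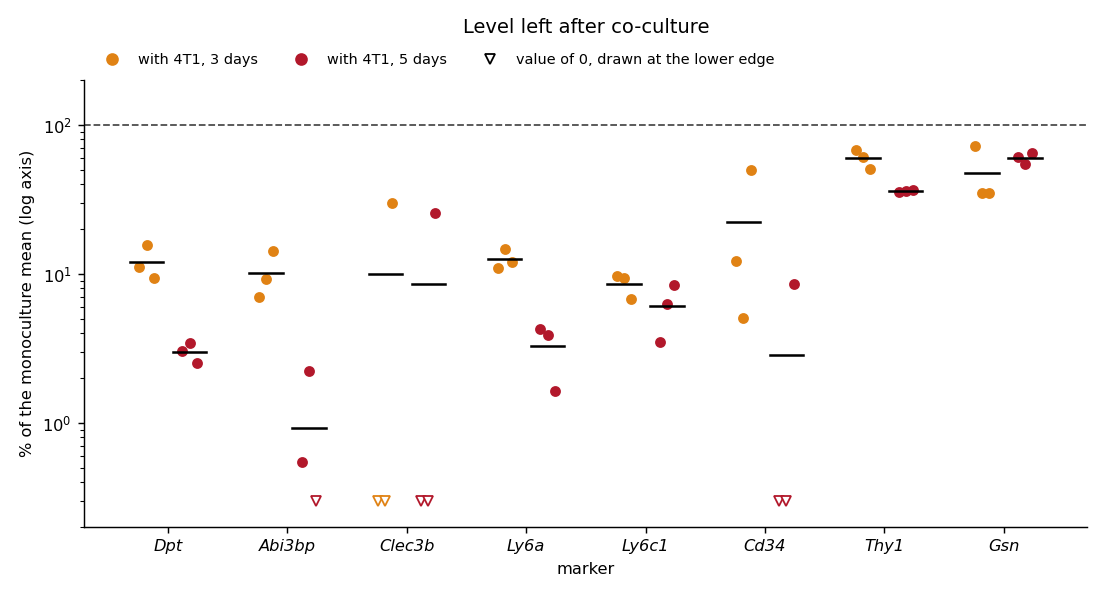
Mean level of each member in 3-day and 5-day co-culture as a percentage of its monoculture mean on a log axis, with lines for means, points for libraries and open triangles for values of 0. Abi3bp (0.924%), Dpt (2.99%) and Ly6a (3.27%) have the least left at 5 days among the members with over 100 monoculture reads, and Gsn (59.9%) the most.

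Dpt encodes dermatopontin, a small matrix protein that binds decorin and takes part in collagen fibril assembly. It lies on chromosome 1 at 164796644-164824266 (mm10, plus strand). Its normalised read counts were 245.1, 345.6 and 302.1 in the monocultures, 33.2, 46.6 and 27.8 at 3 days, and 9.0, 10.2 and 7.5 at 5 days. The 3 groups did not overlap, and the lowest monoculture stood 5.26-fold above the highest 3-day library. Group means were 297.6 ± 50.4, 35.9 ± 9.68 and 8.9 ± 1.35 (SD, n = 3 each), 8.30-fold and 33.4-fold lower than in monoculture. The log2 fold change was -3.04 (SE 0.25, 95% interval -3.57 to -2.50, limma adjusted p = 5.6e-07) at 3 days. At 5 days it was -4.91 (interval -5.44 to -4.38, limma adjusted p = 2.2e-09). The 5-day value rests on 27 reads, against 1585 in monoculture.

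Abi3bp encodes a secreted matrix protein named for its binding to the adaptor ABI3. The gene lies on chromosome 16 at 56477878-56690135 (plus strand). It was measured at 82.9, 288.4 and 126.6 in the monocultures, 11.6, 15.3 and 23.7 at 3 days, and 0.9, 3.7 and 0 at 5 days. Replicate 2 stood far above the other monocultures, and still the groups did not overlap. Means of 166.0 ± 108.3, 16.9 ± 6.20 and 1.53 ± 1.93 (SD, n = 3 each) were 9.84-fold and 108.2-fold lower than in monoculture. Over the groups 931, 46 and 5 reads were counted, and the ratio of reads between monoculture and 5 days was 105.9 (95% Clopper-Pearson interval 45.2 to 327, which covers counting error only). The log2 fold change was -3.08 (SE 0.52, interval -4.19 to -1.98, limma adjusted p = 0.00054) at 3 days and -6.13 (interval -7.24 to -5.03, limma adjusted p = 4.0e-07) at 5 days. With a pseudocount of 5 the 5-day value was -4.56, and without 5-day replicate 2 it was -6.72, both past the test.

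Clec3b encodes tetranectin, a C-type lectin that binds the kringle region of plasminogen, and lies on chromosome 9 at 123150946-123157432 (plus strand). It had 5.6, 7.2 and 1.3 in the monocultures, 0, 0 and 1.4 at 3 days, and 0, 0 and 1.2 at 5 days. The lowest monoculture overlapped the highest 3-day library and lay just above the highest 5-day library. Only 26, 1 and 1 reads stood behind these groups, which gives ratios of 13.7 (interval 2.24 to 560) and 14.8 (2.43 to 606). The exact two-sided permutation test gave p = 0.2 at 3 days and p = 0.1, the smallest that 3 against 3 libraries allow, at 5 days. With no filter its limma log2 fold changes were -1.90 (adjusted p = 0.0498) and -1.94 (adjusted p = 0.0385).

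The tested genes for partners of these secreted proteins did not share 1 direction. Abi3 and Plg, the genes of ABI3 and plasminogen, were not among the genes measured. Of 8 partner genes of dermatopontin and ABI3BP tested, 1 was called lower and 2 higher at 3 days, and 2 lower and 2 higher at 5 days, with medians of 0.08 and 0.02 on the log2 scale. Over all genes tested, 9.37% and 11.4% were called lower at these times and 10.6% and 12.6% higher. Counts in lists this small say little against these shares. Tgfb1, encoding the cytokine that dermatopontin can bind, rose from 124.4 ± 33.2 to 315.5 ± 74.3 and 441.7 ± 97.8 (SD, n = 3 each, log2 fold changes 1.34 and 1.83). Itga3, an integrin subunit gene, rose from 14.9 ± 6.58 to 66.0 ± 25.4 and 84.9 ± 18.7 (SD, n = 3 each). Col3a1, encoding a fibrillar collagen, fell from 7303 to 3407 and 1870 (log2 fold changes -1.04 and -1.89), whereas Col1a1, with 19220, 21445 and 20913, did not pass the test (log2 fold changes 0.17 and 0.12). Dcn, encoding decorin, was 3469 ± 1045, 3260 ± 858.8 and 1316 ± 318.5 (SD, n = 3 each) and was called only at 5 days (log2 fold change -1.38, limma adjusted p = 0.00084). Of 4 tested genes around tetranectin, 1 was lower at 3 days, and 3 were lower and 1 higher at 5 days. Plat, the tissue plasminogen activator gene, was the higher one, with 300.6 ± 3.22, 256.4 ± 17.8 and 520.1 ± 45.8 (SD, n = 3 each).

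Ly6a encodes Sca-1, a GPI-anchored surface protein used to sort stem and progenitor cells, and lies on chromosome 15 at 74994877-74998031 (minus strand). In BALB/c mice, Sca-1 is carried by fewer lymphocytes than in strains of the other Ly6 haplotype. Ly6a was measured at 641.8, 1253.1 and 617.7 in the monocultures, 91.3, 123.2 and 100.2 at 3 days, and 35.9, 32.6 and 13.7 at 5 days. Monoculture replicate 2 stood well above the others, and the groups did not overlap. Means were 837.5 ± 360.1, 104.9 ± 16.5 and 27.4 ± 12.0 (SD, n = 3 each), a 7.98-fold and a 30.6-fold lower level. The log2 fold change was -2.92 (SE 0.32, interval -3.60 to -2.23, limma adjusted p = 1.1e-05) at 3 days and -4.91 (interval -5.60 to -4.23, limma adjusted p = 3.0e-08) at 5 days.

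Ly6c1, 45987 bases from Ly6a on the same strand (chromosome 15, 75044018-75048830), encodes a Ly6C antigen, best known from monocytes and endothelium. It had 101.5, 147.1 and 63.0 in the monocultures, 10.0, 9.7 and 7.0 at 3 days, and 3.6, 6.5 and 8.7 at 5 days. All co-culture libraries lay below the monocultures, but those of 3 and 5 days overlapped. From a mean of 103.9 ± 42.1 the level fell 11.7-fold to 8.9 ± 1.65 and 16.6-fold to 6.27 ± 2.56 (SD, n = 3 each). On the log2 scale the change was -3.34 (SE 0.37, interval -4.12 to -2.56, limma adjusted p = 1.0e-05) and -3.83 (interval -4.61 to -3.06, limma adjusted p = 1.4e-06). The co-culture values rest on 25 and 18 reads, against 568 in monoculture.

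Part of the Ly6a and Ly6c1 transcripts is shared with relatives. Of the 50-base windows in the last 500 bases of their annotated transcripts, where 3′ end reads fall, between 4.43% and 16% per Ly6a transcript and between 5.10% and 62.1% per Ly6c1 transcript also occurred in another gene's transcripts. The relatives were Ly6c2 and Ly6i, the pair itself, and for Ly6a also I830127L07Rik, so reads could have been split or lost, and Ly6c2 and Ly6i were not analysed here. The share was 0% for the other 6 members.

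Of 7 other Ly6 family genes tested, 0 were called lower at 3 or 5 days and 1, Lypd1, was called higher at both, from 31.1 ± 14.4 to 98.1 ± 20.5 and 69.8 ± 17.9 (SD, n = 3 each). Both shares are near those over all genes (9.37% and 11.4% lower, 10.6% and 12.6% higher), so the count says little about the family. Without monoculture replicate 2, Lypd1 missed the threshold at 5 days (limma adjusted p = 0.054). Ly6e, a neighbour of Ly6a, had 1842.5, 2252.9 and 2342.7 in the monocultures, 3032.3, 2798.4 and 2381.9 at 3 days and 2220.1, 2148.7 and 1558 at 5 days. Its log2 fold changes were 0.35 (limma adjusted p = 0.21) and -0.13 (limma adjusted p = 0.68). Within 500000 bases of the pair, 7 genes were measured. At 3 days only Ly6a and Ly6c1 among them were called lower. At 5 days 4 were, with Arc, an immediate early gene, and Them6, and 0 were called higher at either time. Arc reached 5 in too few co-culture libraries to pass the filter without the monocultures, so its being tested favoured a fall. The plot of neighbours on chromosome 15 gives each library.

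**Figure D3:**
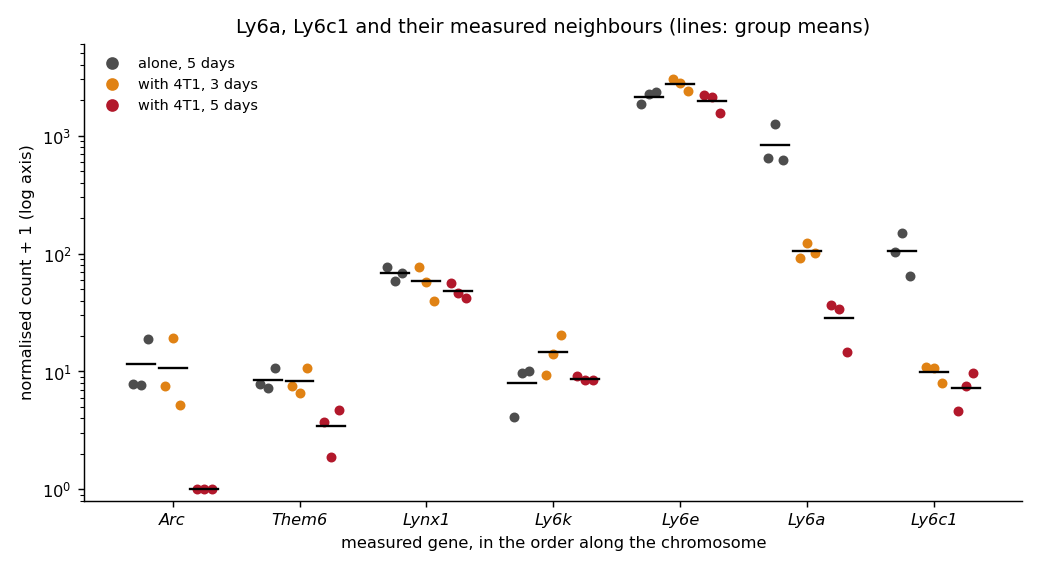
Normalised read counts, as value + 1 on a log axis, of the 7 measured genes around Ly6a and Ly6c1, with a point per library and lines for group means in monoculture (alone), 3-day and 5-day co-culture. Ly6a and Ly6c1 lie lower in every co-culture library than in monoculture, with the 3-day and 5-day libraries of Ly6c1 overlapping, Ly6e stays between 1558 and 3032.3 in the 9 libraries, and Arc is listed at 0 in the 5-day co-cultures.

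Cd34, on chromosome 1 at 194938819-194961279 (plus strand), encodes a sialomucin of haematopoietic progenitors, endothelium and resting fibroblasts. It had 8.0, 15.9 and 18 in the monocultures, 1.7, 0.7 and 7.0 at 3 days, and 0, 0 and 1.2 at 5 days. The highest 3-day library came close to the lowest monoculture, and the 5-day libraries lay below the monocultures but overlapped the 3-day libraries. Means were 14 ± 5.27, 3.13 ± 3.39 and 0.4 ± 0.69 (SD, n = 3 each), from 74, 7 and 1 reads. The ratio of reads was 5.55 at 3 days (interval 2.56 to 14.3) and 42.1 at 5 days (interval 7.33 to 1685). The 3-day log2 fold change was -2.10 (SE 0.63, interval -3.43 to -0.77, limma adjusted p = 0.026), and it missed the threshold without monoculture replicate 2 (adjusted p = 0.108) or 3 (0.130) or 3-day replicate 1 (0.062) or 2 (0.113). Without 3-day replicate 3, its highest co-culture library, it was -2.73. At 5 days it was -3.45 (interval -4.78 to -2.12, limma adjusted p = 0.00076), and edgeR on the recovered reads gave -5.02. Both fits used the same filter, which Cd34 passed only through the monocultures, so its being tested favoured a fall.

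Podxl, encoding the related sialomucin podocalyxin, went the other way. It had 1 read in the monocultures, 28 at 3 days and 48 at 5 days, which gives ratios of 53.3 (interval 8.82 to 2181) and 84.4 (interval 14.4 to 3401). Podocalyxin is also made by epithelial and carcinoma cells, whose markers were higher in the same libraries, and their part in this was not tested. Podxl2, encoding endoglycan, fell to 3.27 ± 1.08 at 5 days from 11.5 ± 2.18 (SD, n = 3 each, log2 fold change -1.56, limma adjusted p = 0.032), passed the filter only through the monocultures, and missed the threshold when any 1 of 5 of the 6 libraries compared was left out.

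Thy1 encodes CD90, a GPI-anchored glycoprotein that binds integrins and syndecan-4 on neighbouring cells, and lies on chromosome 9 at 44043384-44048579 (plus strand). Its counts were 2556.7, 2359.2 and 2846.6 in the monocultures, 1758.6, 1571.8 and 1303.6 at 3 days, and 923.6, 927.7 and 941.3 at 5 days. The groups did not overlap, and the 5-day libraries lay close together. Means of 2587.5 ± 245.2, 1545 ± 228.7 and 930.9 ± 9.27 (SD, n = 3 each) were 1.68-fold and 2.78-fold lower than in monoculture. The log2 fold change was -0.75 (SE 0.17, interval -1.11 to -0.39, limma adjusted p = 0.0049) at 3 days and -1.47 (interval -1.83 to -1.11, limma adjusted p = 9.6e-06) at 5 days. With 754 to 4908 reads a library, counting error was small here.

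Of 10 tested genes for partners of CD90 at the membrane, 2 were called lower and 3 higher at 3 days, and 2 lower and 4 higher at 5 days. Over all genes tested, 9.37% and 11.4% were called lower at these times and 10.6% and 12.6% higher, and the list as a whole was not tested. Sdc4, encoding syndecan-4, fell from 88.4 ± 12.8 to 26.9 ± 11.3 and 12.9 ± 5.05 (SD, n = 3 each, log2 fold changes -1.75 and -2.73). Of the beta integrin subunit genes in the list, Itgb1 and Itgb3 rose and Itgb5 fell. Itgb1 went from 1470 ± 80.6 to 3340 ± 356.8 and 3378 ± 89.9, and Itgb3 from 60.2 ± 52 to 183.9 ± 41.7 and 312.2 ± 54.1 (SD, n = 3 each). The log2 fold changes of Itgb3, 1.92 and 2.69, were 2.58 and 3.35 without monoculture replicate 3. Itgb5 went from 1079 ± 126.2 to 533.8 ± 366.6 and 436.6 ± 124.0 (SD, n = 3 each, log2 fold changes -1.22 and -1.34). Its 3-day libraries overlapped the monocultures, and the 3-day call was lost without 3-day replicate 2 (limma adjusted p = 0.082) or 3 (0.080).

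Gsn encodes gelsolin, which severs and caps actin filaments in the cell and also has a secreted form, and lies on chromosome 2 at 35256380-35307892 (plus strand). It had 2143.3, 1456 and 1580.5 in the monocultures, 1242.1, 603.5 and 602.4 at 3 days, and 1044.9, 939.8 and 1117.3 at 5 days. The co-culture libraries lay below the monocultures, with 3-day replicate 1 above the 5-day libraries and the other 3-day replicates below them. Means were 1727 ± 366.2, 816.0 ± 369.0 and 1034 ± 89.3 (SD, n = 3 each), a 2.12-fold and a 1.67-fold lower level. At 3 days the log2 fold change was -1.15 (SE 0.25, interval -1.67 to -0.62, limma adjusted p = 0.0036). The 5-day change of -0.72 (interval -1.25 to -0.20, limma adjusted p = 0.044) did not hold without any 1 of 5 of the 6 libraries compared, with adjusted p between 0.074 and 0.164.

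Most genes of a list for actin severing, capping and monomer binding did not pass the test. Of 14 tested, 1 was lower and 3 higher at 3 days, 0 lower and 4 higher at 5 days, with medians of 0.06 and 0.01 on the log2 scale. The lower one, Pfn1, and 1 of the 4 higher ones, Tmsb4x, encode proteins that bind actin monomers. Over all genes tested, 9.37% and 11.4% were called lower at these times and 10.6% and 12.6% higher. Capg, encoding a capping protein of the gelsolin family, rose from 763.2 ± 96.9 to 1416 ± 285.9 and 1409 ± 128.3 (SD, n = 3 each, log2 fold changes 0.88 and 0.89), opposite to Gsn. Dstn, encoding destrin, rose from 29.1 ± 6.71 to 108.6 ± 18 and 81.7 ± 18.3 (SD, n = 3 each).

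The 5-day and 3-day co-cultures share no libraries and were compared directly. Of the 7 members tested, Dpt, Ly6a, Abi3bp and Thy1 were called lower at 5 days, 4 in all, and 0 higher, where 3.71% of all genes were called lower and 3.20% higher. Dpt stood at 24.8% of its 3-day mean (log2 fold change -1.87, interval -2.41 to -1.34, limma adjusted p = 0.00030), Ly6a at 26.1% (-2.0, interval -2.68 to -1.31, limma adjusted p = 0.0016) and Abi3bp at 9.09% (-3.05, interval -4.16 to -1.94, limma adjusted p = 0.0024). The Abi3bp value was -1.75 with a pseudocount of 5 and -3.64 without 5-day replicate 2. Every 5-day library lay below every 3-day library for these 3 genes and for Thy1, as it did for 12.9% of all genes. Thy1 stood at 60.3% (-0.72, interval -1.08 to -0.36, limma adjusted p = 0.018). Its call was lost without 3-day replicate 1 (adjusted p = 0.058) or 2 (0.075) or 5-day replicate 1 (0.057) or 2 (0.057). These changes are also the difference between the 5-day and 3-day changes against the shared monocultures.

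The remaining members did not pass this test, with intervals that leave room for a change. Ly6c1 changed by -0.50 (interval -1.28 to 0.28, limma adjusted p = 0.46) and Cd34, on 1 read against 7, by -1.35 (interval -2.68 to -0.02, limma adjusted p = 0.22). Gsn was the only member tested with a higher mean at 5 than at 3 days, by 0.43 (interval -0.10 to 0.95, limma adjusted p = 0.33). Without 3-day replicate 1, its highest 3-day library, this was 0.77 (adjusted p = 0.036). The plot of changes with intervals sets the 3 comparisons beside each other.

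**Figure D4:**
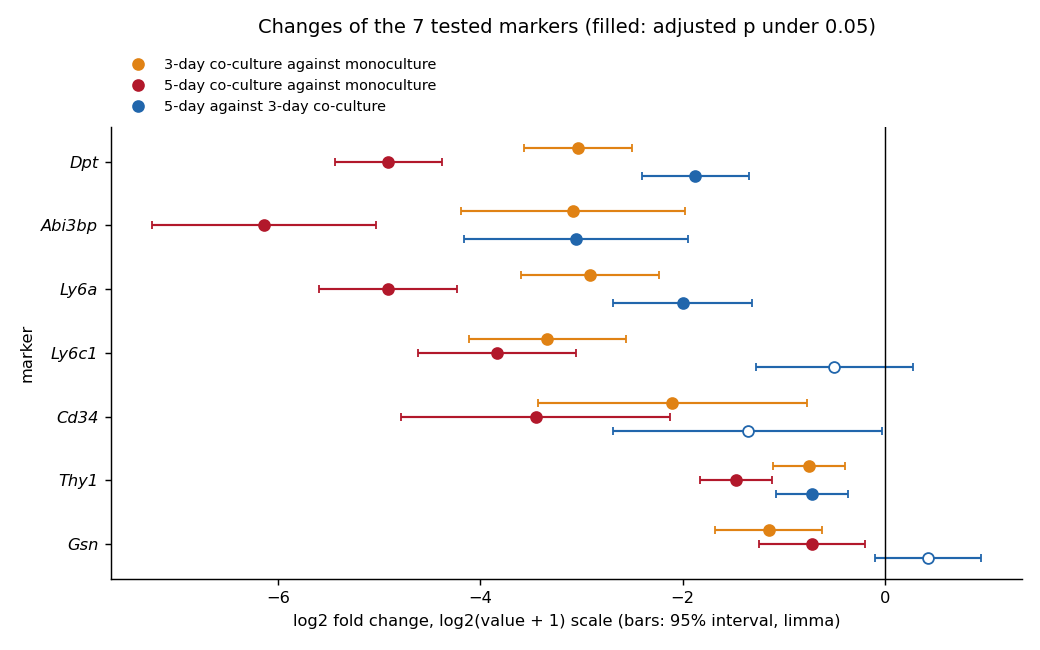
Log2 fold changes of the 7 tested members on the log2(value + 1) scale in the 3-day and 5-day co-cultures against monoculture and in 5 against 3 days, with 95% intervals from limma as bars and points filled where the adjusted p was under 0.05. The intervals against monoculture lie below 0 for each gene, while in 5 against 3 days those of Ly6c1 and Gsn cross 0.

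Members also differed in how the monocultures varied among themselves. Replicate 2 was the highest monoculture for Dpt, Ly6a, Ly6c1, Clec3b and Abi3bp, replicate 3 for Cd34 and Thy1, and replicate 1 for Gsn. The coefficient of variation in monoculture was 65.2% for Abi3bp, 43.0% for Ly6a and 40.5% for Ly6c1, against 16.9% for Dpt and 9.47% for Thy1. Across the 9 libraries the log2 values of Dpt correlated with those of Ly6a (Pearson r = 0.985), Thy1 (0.971) and Abi3bp (0.961), and those of Gsn least with Abi3bp (0.407) and most with Ly6c1 (0.726). These r describe 9 libraries that fall into 3 groups and in which all members share each library's depth.

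Other genes of universal and adventitial progenitors moved in both directions. Of 34 tested, 18 were called lower and 3 higher at 3 days, and 19 lower and 4 higher at 5 days, with medians of -1.13 and -1.26 on the log2 scale. Of these, 6 (Sema3c, Sfrp4, Tnxb, Efemp1, Adamts5 and Sfrp2) passed the filter only through the monocultures, so their being tested favoured a fall. Among the 28 that pass through the co-culture libraries alone, 12 were lower and 3 higher at 3 days, and 13 lower and 4 higher at 5 days. Over all genes tested, 9.37% and 11.4% were called lower at these times and 10.6% and 12.6% higher. Cxcl12, encoding a chemokine of progenitor niches, fell from 1290 ± 538.6 to 94.5 ± 24.2 and 43.0 ± 7.22 (SD, n = 3 each). Tnxb, encoding tenascin-X, fell from 50.8 ± 17.0 to 4.07 ± 2.19 and 3.8 ± 1.11, and Pdgfra, the receptor gene that marks mesenchymal progenitors, from 189.3 ± 55.8 to 51.7 ± 8.27 and 21.0 ± 2.57 (SD, n = 3 each). Fbln1, encoding the matrix glycoprotein fibulin-1, fell from 274 reads to 26 at 3 days and 3 at 5 days, a ratio of 52 (interval 17.6 to 253) at 5 days. Sfrp4, encoding a secreted Wnt antagonist, fell from 113 reads to 2 at 3 days (ratio 29.7, interval 8.02 to 248). Mfap4, a microfibril-associated gene, fell from 750.8 ± 59.2 to 216.8 ± 67.1 and 119.0 ± 48.4 (SD, n = 3 each).

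Procr, encoding the endothelial protein C receptor and used as a mammary progenitor marker, rose from 155.8 ± 33.5 to 494.1 ± 103.9 and 275.5 ± 26.6 (SD, n = 3 each, log2 fold changes 1.66 and 0.84). The genes that name the adventitial and parenchymal states, Pi16 and Col15a1, were looked at after their values were seen. Pi16 had means of 22.7 ± 5.51, 17.0 ± 13.8 and 2.77 ± 1.62 (SD, n = 3 each), a log2 fold change of -0.70 (limma adjusted p = 0.40) at 3 days and -2.74 (limma adjusted p = 0.0015) at 5 days. Its 3-day value turned on single libraries, with -0.07 without 3-day replicate 1 and -1.30 without 3-day replicate 2, and was called in neither fit. Col15a1 rose from 101.5 ± 44.4 to 203.3 ± 67.4 and 349.0 ± 40.6 (SD, n = 3 each), by 1.04 (limma adjusted p = 0.018) and 1.86 (limma adjusted p = 0.00019). Leaving out monoculture replicate 2 (adjusted p = 0.092) or 3-day replicate 3 (0.081) ended its 3-day call. Between 3 and 5 days, 7 of the 34 genes were lower and 1 higher, against 3.71% and 3.20% of all genes. The median of the 34 was -0.29, and Dcn (log2 fold change -1.30) and Pdgfra (-1.26) were among the lower ones.

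**Figure D5:**
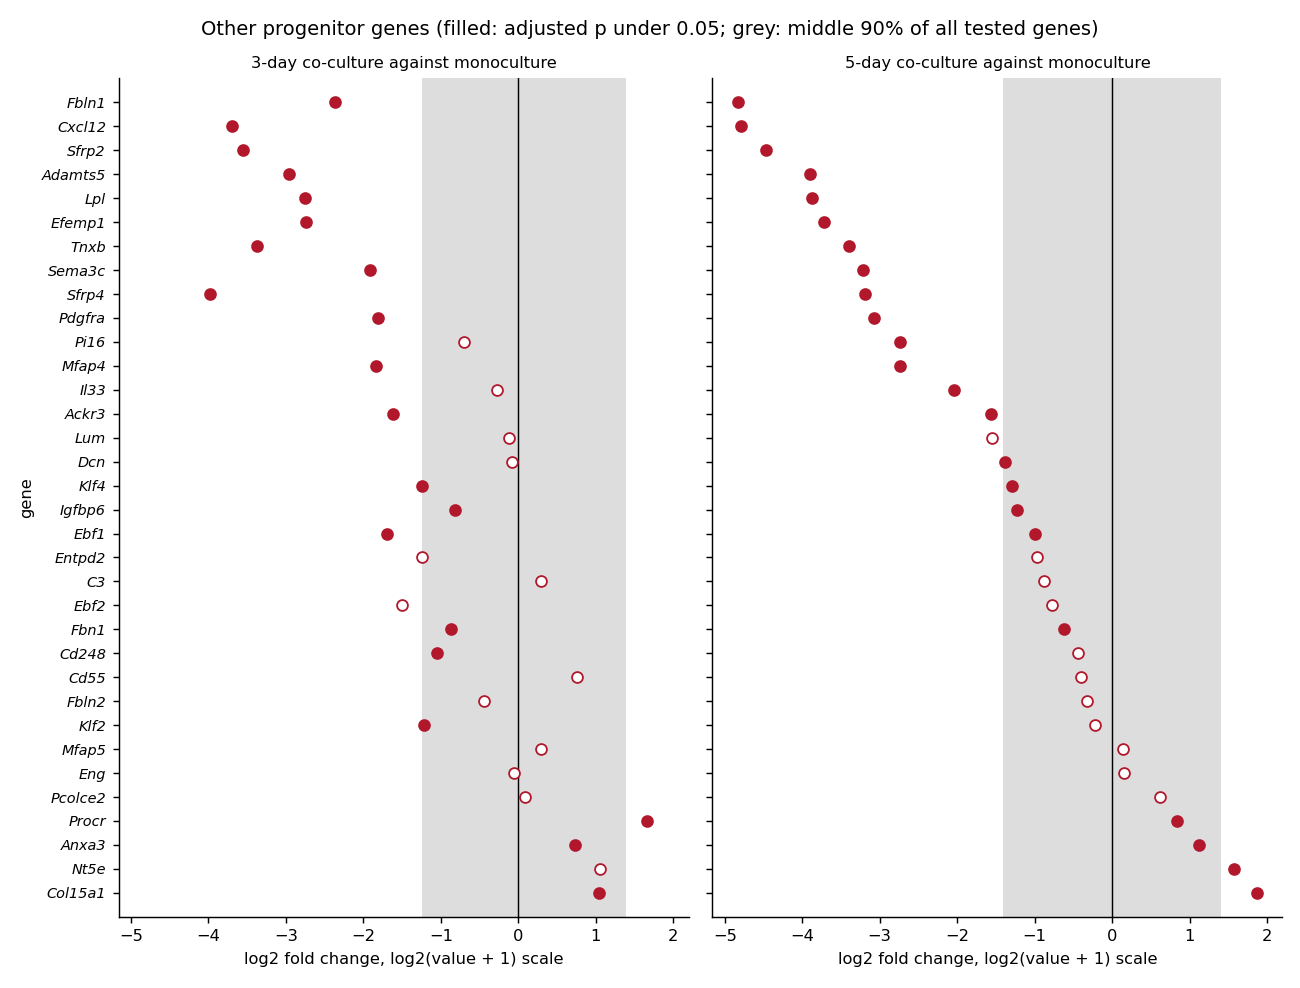
Log2 fold changes of the 34 other progenitor genes on the log2(value + 1) scale in 3-day and 5-day co-culture against monoculture, as points filled where the adjusted p was under 0.05, over a grey band that holds the middle 90% of all genes tested. Called falls number 18 and 19 and called rises 3 and 4, and 6 of the falls at each time are genes that passed the filter only through the monocultures.

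The genes closest to each member over the 9 libraries were sought among 8859 tested genes with a mean of at least 10, by Pearson r of log2 values. Dpt was closest to Svep1 (r = 0.992), a matrix gene that went from 587.5 ± 91.1 to 71.8 ± 13.2 and 22.8 ± 4.28 (SD, n = 3 each). Ly6a was closest to Grb10 (0.992) and Gda (0.991), Ly6c1 to Aebp1 (0.992) and Atoh8 (0.988), and Abi3bp to Npy1r (0.989) and Tgfbr3 (0.985). Grb10 was also the second gene for Dpt (0.990). Pearson r does not measure the size of a change. Grb10 fell from 217.5 ± 33.9 to 111.8 ± 10.1 and 69.2 ± 7.05 (SD, n = 3 each), less than Ly6a or Dpt. Aebp1 fell from 5708 ± 955.2 to 2740.5 ± 168.5 and 2283 ± 259.8 (SD, n = 3 each), less than Ly6c1. Atoh8 went from 135.8 ± 33.5 to 13.8 ± 2.20 and 7.93 ± 2.99 (SD, n = 3 each), by amounts like those of Ly6c1. Gsn was closest to Slc4a2 (0.971) and Loxl3 (0.970), and Thy1 to Prrc2b (0.986) and 1500015O10Rik (0.986). Cd34 with B4galt4 (0.976) and Extl2 (0.964), and Clec3b with Sulf1 (0.928) and Pros1 (0.925), gave lower values on few reads. Loxl3 shared the course of Gsn, with 237.1 ± 24.9, 125.8 ± 34.3 and 155.1 ± 10.3 in the 3 groups (SD, n = 3 each), lowest at 3 days.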

How the data were processed

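Gene expression was measured in 9 libraries, 3 in each of 3 groups. Per the submitters' processing notes, bcl2fastq, STAR 2.4.2a, mm10 and HTSeq were used; the annotation, strand setting, gene filter and library factors are not given in the sources used here. The authors deposited a signal on a count scale, normalised read counts rounded to 1 decimal. Columns were matched to samples by name, and the column taken as 5-day co-culture replicate 2, which names no carcinoma cells, was placed by elimination.

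In each library 99.98% to 100% of values were whole multiples of 1 read within a tolerance of 0.051, so reads were recovered by division. Without molecular identifiers, reads are no independent molecules, and counting intervals cover counting error only.

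The test was limma 3.58.1 (R 4.3.3; lmFit, eBayes with trend, two-sided) on log2(value + 1), 1 model over 9 libraries, for genes with at least 5 in at least 3 libraries. Single values were also compared by exact two-sided permutation, whose smallest p of 0.1 was reached wherever groups of 3 did not overlap. For some changes that rest on few reads in a group, ratios of reads with Clopper-Pearson 95% intervals are given. Alternatives were other pseudocounts, filters and scalings, a fit of only the compared groups, thinned reads, a replicate block, each library left out, and the recovered reads tested with edgeR 4.0.16 and with DESeq2 1.42.0. The scripts were tested on simulated data.

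The members and lists were chosen with earlier results of these data known. Genes named besides the members were up to 4 called genes of each list by smallest adjusted p. The highest markers of each cell type and the 2 genes most like each member were eligible too, and the text names a selection. Where a result turns on them, the text also names genes chosen after their values were seen. These are Pi16, Col15a1, Arc, Them6, Dcn, Col1a1, Podxl2, Sema3c, Efemp1, Adamts5, Sfrp2, Wt1, Lrrn4, Oxtr, Acta2, Myl9, Tpm1, Tpm2, Cldn3, Elf3 and Grhl2. Gene positions are from GENCODE M21.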

Additional observations from a re-analysis of the deposited data

Results flagged for a closer look

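For 4 members the change against monoculture differed between 5 and 3 days of co-culture, by the direct test of the co-culture groups in limma. The differences on the log2(value + 1) scale, 5 days minus 3 days, were -1.87 for Dpt, -2.0 for Ly6a, -3.05 for Abi3bp and -0.72 for Thy1. Each was lower in 3 of 3 libraries at 5 days than in any library at 3 days. Days in culture and days with carcinoma cells differ together between these groups and cannot be told apart.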

How the results depend on the processing

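Over 21 alternatives, members gave 438 values, of which 424 kept their direction and call, 13 lost a call (Cd34 at 3 days, Gsn at 5 days, and Thy1 between the days, each when a library was left out), 1 gained a call and 0 reversed. With a library left out, 6 to 7 members were lower at 3 days and at 5 days, and 3 to 4 between the days, with 0 to 1 higher. All genes called then ranged at 3 days from 633 to 1001 lower and 844 to 1125 higher, at 5 days from 825 to 1314 and 994 to 1430, and between the days from 171 to 400 and 140 to 349. The fewest lower at 3 days came without monoculture replicate 3 and between the days without 3-day replicate 2. Other progenitor genes ranged from 15 to 19 lower and 1 to 4 higher, 15 to 20 and 3 to 4, and 3 to 10 and 0 to 2. With a mean of at least 20, 12 other progenitor genes were lower at 5 days. Between the days, 0 were higher with edgeR or thinned reads, and thinning left 184 genes higher in all. Col1a1 at 5 days turned to -0.22 with quantile normalization and ranged from -0.021 to 0.32 with a library left out, and Ly6e ranged from -0.24 to 0.033; neither was called. The causes were not tested.

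Whether replicates of equal number pair the samples was not settled. Their deviations correlated between -0.114 and 0.233 over the 3 comparisons, and those of unequal number reached 0.323. In the 5-day comparison replicates 1 and 2 correlated more with their own number (0.14 and 0.233) than with any other (at most -0.016 and -0.029). With the replicate block, 7, 7 and 4 members were called lower, and 2 other progenitor genes higher between the days. Depth limits Cd34 and Clec3b, with 1 read each at 5 days.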

Other observations

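Genes of activated and contractile fibroblasts were called higher more often than lower in co-culture. Of 16 tested, 6 were called higher and 1 lower at 3 days, and 6 higher and 2 lower at 5 days. Of all genes, 10.6% and 12.6% were called higher and 9.37% and 11.4% lower by limma. The contractile genes of the list differed among themselves. Cnn1 was called higher at both times and Tpm2 at 5 days. Tagln was called lower at 5 days (log2 fold change -0.92, limma adjusted p = 0.023), and Acta2, Myl9 and Tpm1 were not called. Ctgf, encoding the matricellular protein CCN2, rose from 1288 ± 161.6 to 6002 ± 1457 and 4607 ± 546.8 (SD, n = 3 each, log2 fold changes 2.20 and 1.84). Cthrc1, a marker gene of collagen-producing fibroblasts in injury, rose from 108.9 ± 2.01 to 285.5 ± 63.2 and 421.1 ± 33.9 (SD, n = 3 each). Col12a1, encoding a fibril-associated collagen, fell from 557.4 ± 73.4 to 177.9 ± 20.2 and 93.6 ± 22.7 (SD, n = 3 each, log2 fold changes -1.64 and -2.58).

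Pdpn, the gene of the antigen used for sorting, had means of 214.9 ± 20.0, 294.6 ± 83.2 and 275.3 ± 55.0 (SD, n = 3 each) in monoculture, 3-day and 5-day co-culture, and did not pass the test (limma adjusted p = 0.19 and 0.28).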
